A study of Mus musculus with 4 samples.

Results

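Hair matrix-like cells were chosen by the keratin UMIs of each cell, as the barcodes that carried at least 4 unique molecular identifiers (UMIs, counted transcript molecules) of the keratin genes Krt35, Krt25 and Krt28 together. This keratin sum also had to exceed the sum of Krt2, Dsc1, Cst6 and Serpinb12, genes of differentiating epidermis, and the barcode had to carry no UMI of Ptprc (leukocytes) or Cdh5 (endothelium). Of 39266 cells kept by the filters on depth, 191 met this rule. The 4 libraries were 10x 3′ single-cell RNA libraries from FVB/NJ wild-type mice of 8 weeks, 1 of homeostatic digit tissue from an unamputated middle phalanx (P2) and 3 of fibrosing P2 digit taken 12, 17 or 28 days after amputation through that bone (days post-amputation, dpa). Each group was a single library, so differences between groups have no replicate check and no p-value was computed. Values given as a series of 4 follow the order unamputated, 12, 17 and 28 dpa. How many animals were pooled is not given in the sources used here.

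In the growing hair follicle, matrix cells at the base of the follicle divide around the dermal papilla and then differentiate upwards into concentric layers. Cells of the shaft (cortex and cuticle) make hair keratins such as Krt35, with Lef1 and Hoxc13 among the transcription factors that act on shaft genes. Cells of the inner root sheath, the sleeve that moulds the growing shaft, make Krt25, Krt27, Krt28, Krt71 and Krt73 and depend on Gata3. Some hair keratins are also made by the nail matrix.

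The number of members was 52, 21, 20 and 98 in the 4 libraries. In the unamputated library they made up 0.435% of kept cells (exact 95% interval 0.325-0.57). The dpa libraries gave 0.303% (0.187-0.462), 0.23% (0.141-0.355) and 0.839% (0.682-1.02). The 28 dpa share lay above the interval of each other library, and the intervals of the other 3 overlapped. Intervals here cover counting error only and not the spread between animals. Relative to all keratinocytes of the same library, the shares were 3.83% (2.87-4.99), 4.02% (2.51-6.08), 2.96% (1.82-4.53) and 5.51% (4.49-6.67), and the 28 dpa interval overlapped the others. Keratin UMIs per member had medians of 7.5, 10, 14.5 and 23.5, with highest values of 271, 257, 316 and 1178. Members were deep cells, with median totals of 26265, 12521, 18904.5 and 12618 UMIs, against medians of 12393.5, 9987, 8898 and 7114 over all kept cells. Thinning every cell to 2000 UMIs before applying the rule left shares of 0.0861%, 0.121%, 0.0963% and 0.508%. At the threshold, 17 members held exactly 4 keratin UMIs, and 13 cells just outside held 3. Another 13 cells with at least 4 keratin UMIs were left out for a Ptprc or Cdh5 UMI, and 1 for its epidermal sum.

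Members divided into a Krt35 arm and a Krt25/Krt28 arm, by whichever of Krt35 and Krt25 plus Krt28 had more UMIs. The Krt35 arm held 61 cells (15, 1, 12 and 33), the Krt25/Krt28 arm 129 (37, 20, 8 and 64), and 1 cell was tied. Few cells mixed the keratins of both arms: 6 of the 191 carried at least 2 UMIs of each. The Krt25/Krt28 arm was 71.2% (56.9-82.9), 95.2% (76.2-99.9), 40% (19.1-63.9) and 65.3% (55-74.6) of members. The 12 dpa interval did not overlap those of 17 and 28 dpa, so any sum over all members of these libraries also reflects a different mix of arms. Levels of the rule keratins, given as a description, differed as well: Krt35 was at 808.4, 847.5, 2209.8 and 4258.9 CPM in the Krt35 arm, and Krt25 at 728.5, 2355, 2996.4 and 5669.2 CPM and Krt28 at 347.2, 623.4, 626.3 and 859.7 CPM in the Krt25/Krt28 arm (CPM scales a gene's UMIs to the same total in every group). With all members, each of the 3 was lowest in the unamputated and highest in the 28 dpa library. Without the cells marked as likely doublets (described further on), Krt25 was at 1221.5, 2863.3, 5412.9 and 4447 CPM and Krt28 at 466.1, 742.6, 1125.5 and 1137.3 CPM, so that Krt25 was then highest in the 4 cells left at 17 dpa. Without 1 collagen-rich unamputated cell, Krt35 was at 907.8 CPM there, above the single 12 dpa cell.

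**Figure D1:**
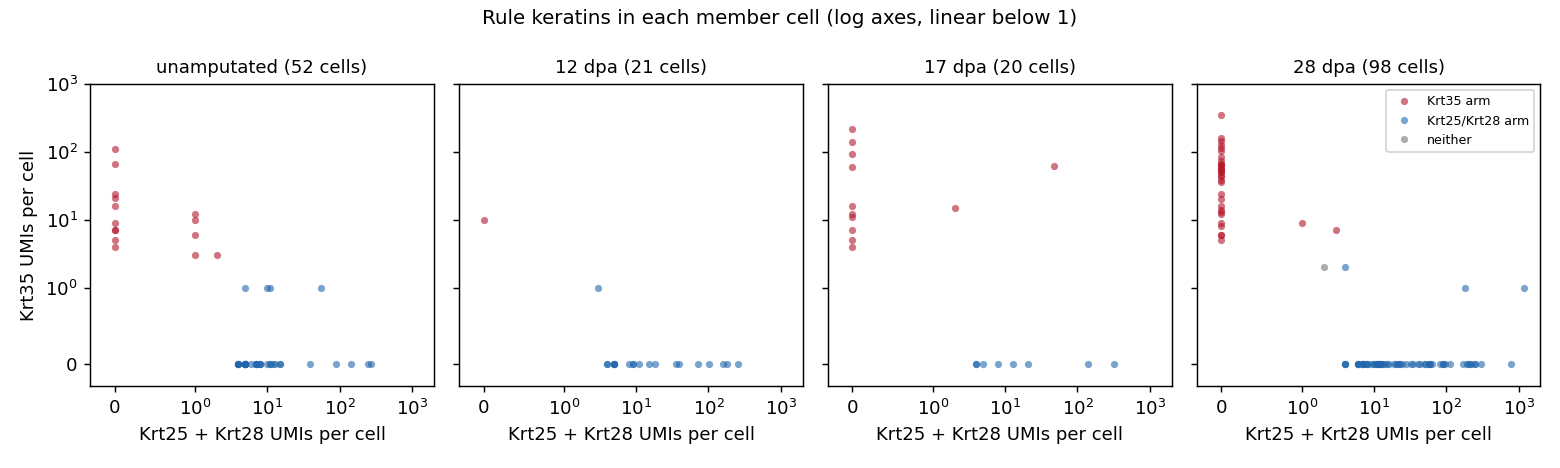
Krt35 UMIs against Krt25 plus Krt28 UMIs in each of the 191 members, 1 panel per library, on logarithmic axes that are linear below 1. Points lie along the 2 axes: most Krt35-arm cells (red) carry no Krt25 or Krt28 UMI and most Krt25/Krt28-arm cells (blue) carry no Krt35 UMI.

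The name was checked on keratins that the rule did not use. In the Krt35 arm, 41 of 61 cells carried more UMIs of other cortex and cuticle keratins than of other inner root sheath keratins, 4 the reverse and 1 equal numbers, and 15 carried neither kind. In the Krt25/Krt28 arm, 108 of 129 carried more of the other inner root sheath keratins, 3 the reverse and 1 equal numbers, and 17 carried neither. S100a3, a calcium-binding protein of the hair cuticle given as a marker of these cells, was at 2516.7, 339, 3076.5 and 2321.2 CPM in the Krt35 arm and at 15.1, 9.45, 21.4 and 82.3 CPM in the Krt25/Krt28 arm. It was detected in 6 of 15 unamputated and 23 of 33 28 dpa cells of the Krt35 arm, against 10 of 37 and 15 of 64 cells of the other. Without 1 collagen-rich unamputated cell, its level in the unamputated Krt35 arm was 146.5 CPM. Of fibroblasts, a class defined with members left out and with median depths of 20053, 14493, 12577.5 and 9007.5 UMIs, 1.2%, 0.313%, 0.771% and 2.53% held at least 1 UMI of the 3 rule keratins. Basal cells gave 0.963%, 0.332%, 0% and 3.8% (0 of 416 at 17 dpa allows up to 0.721%), and the follicle-like (Lhx2-positive) keratinocytes 4.85%, 12%, 8.11% and 5.19%. None of these cells held the 4 UMIs of the rule, but members had been left out of each class, so this outcome was nearly fixed beforehand.

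Several features of the libraries bear on the values. In each library 1 member also held at least 0.5% of its UMIs in Col1a1 plus Col1a2, the chains of type I collagen. They held 90.5%, 92.4%, 95% and 37.2% of the Col1a1 UMIs of their library's members. The one in the unamputated library had 58372 UMIs and supplied 97.1% of all cortex and cuticle keratin UMIs and 99.8% of all keratin-associated protein UMIs of its library. The one at 12 dpa was among the cells marked as likely doublets, and the other 3 were not. Scrublet ranked 52 members (14, 1, 9 and 28) among the likeliest doublets of their libraries. They were kept; without them the Krt25/Krt28 arm held 23, 19, 4 and 37 cells and the Krt35 arm 15, 1, 7 and 32. In members, Y-linked transcripts summed to 355.8, 0, 246.4 and 223.9 CPM and Xist stood at 1.46, 258, 2.32 and 0 CPM, although the labels state pools of males and females. The comparison of 12 dpa with unamputated members thus cannot be told apart from a comparison of Xist-bearing with Y-bearing cells. Pairs of libraries shared between 13 and 57 kept barcodes by sequence.

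Rule keratins are clustered in the genome. Krt25 lies on chromosome 11 at 99315516-99322951, Krt28 at 99364872-99374903 and Krt35 at 100092193-100096241 (GRCm38, GENCODE M21), all on the minus strand, while Krt71 and Krt73 lie in the type II cluster of chromosome 15. Promoters of genes that were high together are shown for the 2 rule keratins of the inner root sheath, for Krt71 (high in the same arm) and for Selenbp1 (first in the opposite arm). Each is 300 bases, 250 before and 50 after the start, 5′ to 3′ on the gene's strand, from RefSeq on GRCm38: Krt28 chr11:99374854-99375153, Krt25 chr11:99322902-99323201 and Krt71 chr15:101743048-101743347 on the minus strand, and Selenbp1 chr3:94932833-94933132 on the plus strand. Capitals mark matches to CTTTGAA on either strand, the letters searched for Lef1 and other TCF factors; TTTATT, searched for Hoxc13, has no match in these 4.
Krt28: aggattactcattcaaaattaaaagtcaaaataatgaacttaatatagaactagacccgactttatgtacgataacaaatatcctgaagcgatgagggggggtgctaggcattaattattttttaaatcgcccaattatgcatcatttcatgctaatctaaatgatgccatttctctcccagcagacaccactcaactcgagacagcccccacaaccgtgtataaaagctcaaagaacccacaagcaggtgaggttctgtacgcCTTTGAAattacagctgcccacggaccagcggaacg
Krt25: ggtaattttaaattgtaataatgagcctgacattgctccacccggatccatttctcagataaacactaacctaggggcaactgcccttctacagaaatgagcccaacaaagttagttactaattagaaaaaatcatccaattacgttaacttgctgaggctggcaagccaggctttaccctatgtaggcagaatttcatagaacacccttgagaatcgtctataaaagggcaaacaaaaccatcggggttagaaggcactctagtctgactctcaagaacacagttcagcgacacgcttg
Krt71: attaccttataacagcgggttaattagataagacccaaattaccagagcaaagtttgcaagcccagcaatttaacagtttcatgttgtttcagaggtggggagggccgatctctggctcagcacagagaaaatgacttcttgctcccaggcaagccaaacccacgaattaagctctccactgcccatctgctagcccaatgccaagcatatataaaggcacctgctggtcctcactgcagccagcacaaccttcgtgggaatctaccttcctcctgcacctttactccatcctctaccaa
Selenbp1: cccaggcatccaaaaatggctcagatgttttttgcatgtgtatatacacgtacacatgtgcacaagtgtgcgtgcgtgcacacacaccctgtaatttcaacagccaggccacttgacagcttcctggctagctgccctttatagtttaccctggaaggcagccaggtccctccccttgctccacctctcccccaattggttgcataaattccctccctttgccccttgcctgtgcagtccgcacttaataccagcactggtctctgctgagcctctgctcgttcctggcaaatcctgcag
Krt28 has 1 match to CTTTGAA, starting at base 265, after the start of transcription. Of all 32851 promoters of this length, 5.14% hold CTTTGAA and 19.6% hold TTTATT. Among the 12 genes highest in the Krt25/Krt28 arm (named next), 9 have entries with 14 promoters, of which 0 hold CTTTGAA and 3 hold TTTATT. Among the 12 highest in the Krt35 arm, 8 have entries with 18 promoters, of which 0 and 3 hold them.

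The arms were compared within each library that had at least 15 cells of both, which were the unamputated and the 28 dpa libraries. Since the arms were cut from keratins of the same cells, the ratios describe them and test nothing. Of 6521 genes outside the rule that reached at least 20 CPM and so were compared, 293 (4.49%) were at least 2-fold higher in the Krt25/Krt28 arm in both libraries and 225 (3.45%) in the Krt35 arm. Weighting every cell equally instead of summing UMIs gave 344 and 276 genes, of which 244 and 197 were among the first counts.

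In the Krt25/Krt28 arm, other inner root sheath genes stood out most. Krt71, a type II keratin that pairs with Krt25, was at 411.4, 1149.2, 2007.1 and 4185.6 CPM in this arm and at 2.69, 0, 6.91 and 2.22 CPM in the Krt35 arm. Each of the 4 libraries had Krt71 higher in the Krt25/Krt28 arm, with log2 ratios of 6.81 in the unamputated and 10.35 in the 28 dpa library. Krt73, another type II keratin of this sheath, was at 548.9, 963.4, 1295.4 and 1251.5 CPM, against 0, 0, 269.3 and 2.22 CPM in the Krt35 arm. At 17 dpa the Krt73 UMIs of the Krt35 arm came from 1 of its 12 cells. Prr9, a proline-rich protein gene, was at 231.8, 365.2, 476.9 and 862.2 CPM, against 2.69, 0, 290 and 0 CPM, and again 1 of the 12 cells held the UMIs of the Krt35 arm at 17 dpa. Detection of these genes was uneven within the arm: Krt71 was found in 16 of 37 unamputated cells and 35 of 64 cells at 28 dpa, and Krt73 in 7 and 30.

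Among transcription factors of the Krt25/Krt28 arm, Gata3 was found in 36, 18, 7 and 55 of its 37, 20, 8 and 64 cells, at 368.3, 377.8, 555.2 and 442.1 CPM, against 43, 0, 100.1 and 8.87 CPM in the Krt35 arm. Its log2 ratio was 3.07 in the unamputated and 5.49 in the 28 dpa library. Maf, a basic leucine zipper factor, had log2 ratios of 3.51 and 4.01, Lmo4, a LIM-domain cofactor, 3.23 and 2.8, and Creb5 5.92 and 4.02. Cux1, a homeobox protein known from the inner root sheath, was at 2118.3, 1555.3, 1523.1 and 1106.6 CPM in this arm and at 279.3, 84.7, 400.5 and 204 CPM in the other. Further genes of the first 12 were Acer3, an alkaline ceramidase, with log2 ratios of 3.66 and 3.25, Sulf2, an extracellular heparan sulfatase, 3.24 and 4.28, Slco3a1, an organic anion transporter, 2.97 and 4.51, and Csgalnact1, an enzyme of chondroitin sulfate synthesis, 2.93 and 4.33. Krt75, a keratin of the companion layer, was at 100.3 and 140 CPM in this arm of the unamputated and 28 dpa libraries and at 0 and 6.65 CPM in the Krt35 arm.

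In the Krt35 arm, the first 12 genes were Selenbp1, Dsg4, Aldh1a3, Gm49425, Krt86, S100a3, Ptpre, Mt4, Unc5b, Ank2, Palld and Odc1. Selenbp1, a selenium-binding protein gene, was at 400.2, 423.7, 65.6 and 1308 CPM in this arm, in 13, 1, 6 and 26 of its cells, against 4.01, 0, 7.12 and 8.6 CPM in the Krt25/Krt28 arm. Dsg4, the desmoglein of the hair shaft, was at 155.8, 0, 183 and 274.9 CPM against 1, 0, 0 and 2.46 CPM. Mt4, a metallothionein of stratified epithelia, was found in all 15 unamputated and all 33 28 dpa cells, at 5387.9 and 7852.6 CPM against 86.3 and 426.2 CPM. Krt86, a type II hair keratin, was at 308.9 and 148.5 CPM in those libraries against 4.01 and 3.68 CPM. Aldh1a3, an enzyme that makes retinoic acid, had log2 ratios (Krt25/Krt28 arm over Krt35 arm) of -6.34 and -6.02. Odc1, the rate-limiting enzyme of polyamine synthesis, had -3.55 and -4.53. Gm49425, on chromosome 15 at 101515920-101517261, had -7.06 and -5.95. Of the rest, Unc5b, a netrin receptor, had -4.06 and -4.25, Ptpre, a receptor-type phosphatase, -5.37 and -4.54, Palld, an actin-associated protein, -4.78 and -3.81, and Ank2, an ankyrin, -6.96 and -3.97. Leaving out the collagen-rich unamputated cell lowered S100a3 in this arm from 2516.7 to 146.5 CPM, Mt4 to 1414.3 CPM, Krt86 to 63.7 CPM and Gm49425 to 410.9 CPM, all of which remained above the other arm.

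**Figure D2:**
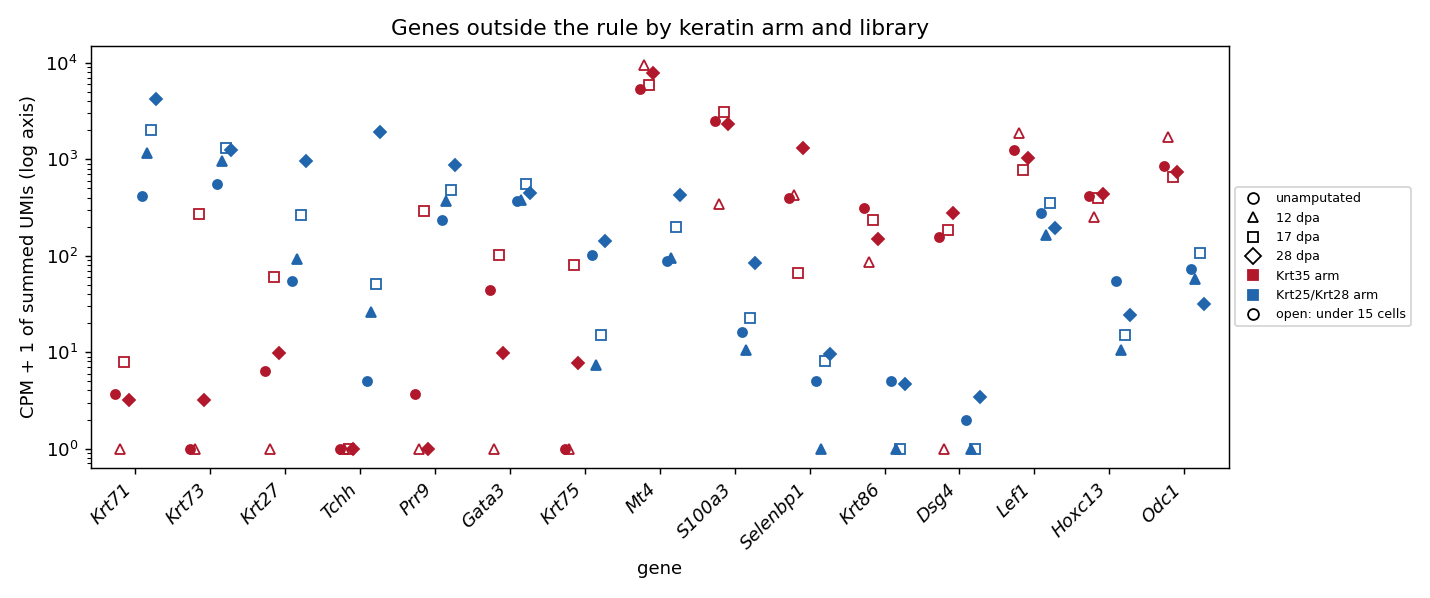
CPM plus 1 (log axis) of 15 genes outside the rule in the Krt35 arm (red) and the Krt25/Krt28 arm (blue) of each library (symbols); open symbols stand for arms of under 15 cells. Krt71, Krt73 and Gata3 lie higher in the blue symbols of each library, and Mt4, Lef1 and Odc1 in the red ones.

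**Figure D3:**
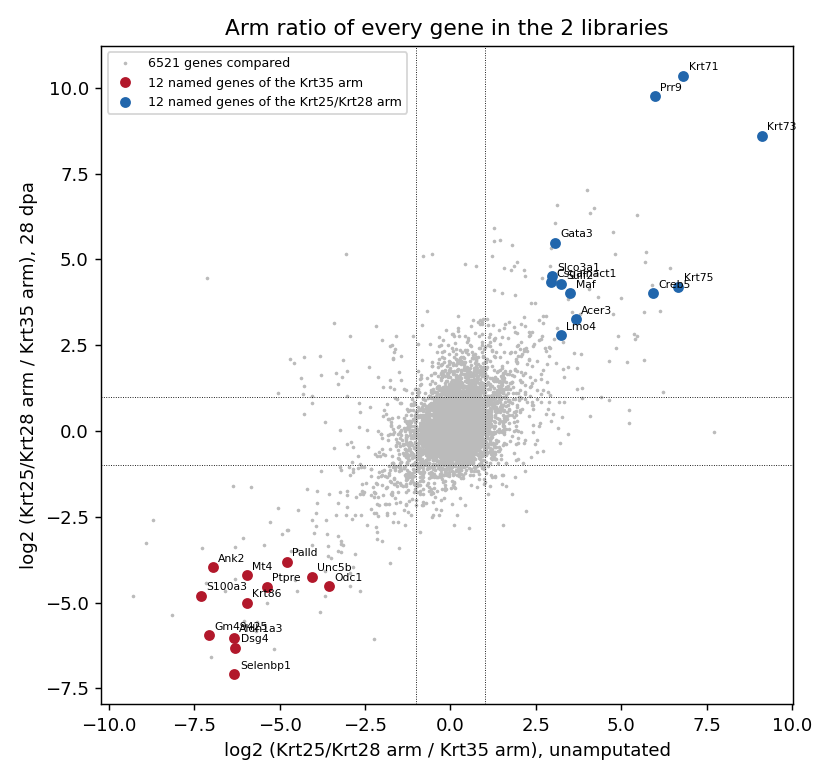
Each grey point is 1 of 6521 genes, with the log2 ratio of the Krt25/Krt28 arm to the Krt35 arm in the unamputated library on the x axis and at 28 dpa on the y axis; dotted lines mark a 2-fold difference. The 12 named genes of each arm (blue and red) lie beyond these lines in both libraries.

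Groups of genes followed the same division. All 3 compared inner root sheath keratins outside the rule (Krt27, Krt71, Krt73) were higher in the Krt25/Krt28 arm (4.49% of all genes). Both compared cortex and cuticle keratins (Krt81, Krt86) and 5 of 6 compared other shaft genes (S100a3, Dsg4, Selenbp1, Hoxc13, Mt4) were higher in the Krt35 arm (3.45% of all genes). All unamputated Krt81 UMIs sat in the collagen-rich cell, and without it Krt81 was at 0 CPM in both unamputated arms. Of 16 compared matrix regulators, 7 were higher in the Krt35 arm (3.45% of all genes) and 0 in the other (4.49%): Lef1, Hoxc13, Bambi, Odc1, Wnt10a, Wnt10b and Jag1. Lef1, which carries Wnt signals to DNA, was at 1262.4, 1864.4, 773.4 and 1030.9 CPM in the Krt35 arm and at 278, 163.7, 348.8 and 194 CPM in the other. Lef1 was thus present in both arms, and every library had it higher in the Krt35 arm. Hoxc13, a regulator of hair keratin genes, was at 410.9, 254.2, 400.5 and 432.3 CPM against 53.2, 9.45, 14.2 and 23.3 CPM. The Notch ligand Jag1 was at 416.3 and 365.8 CPM in the unamputated and 28 dpa Krt35 arm, against 106.4 and 99.5 CPM. Msx2, another matrix homeobox gene, was at 145 and 161.8 CPM against 58.2 and 95.8 CPM and did not reach 2-fold in both.

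Wnt pathway genes divided between the arms. Of 18 compared, 6 were higher in the Krt35 arm (3.45% of all genes) and 3 in the Krt25/Krt28 arm (4.49% of all genes). The first were Lef1, the ligands Wnt3, Wnt10a and Wnt10b, the receptor Fzd3 and the feedback inhibitor Nkd1, and the second Tcf7l2, Nkd2 and the R-spondin receptor Lgr4. Nkd1 was at 96.7 and 39.9 CPM in the Krt35 arm of the unamputated and 28 dpa libraries against 28.1 and 13.5 CPM, whereas its relative Nkd2 was at 2.69 and 0 CPM against 67.2 and 89.7 CPM. Lgr4 was at 85.9 and 82 CPM against 548.9 and 260.4 CPM. Of 11 compared desmosome genes, Dsg1a and Dsg1b were higher in the Krt25/Krt28 arm and Dsg4 in the Krt35 arm. Eda, the ectodysplasin ligand of follicle development, was higher in the Krt25/Krt28 arm (719.5 and 284.9 against 185.3 and 70.9 CPM), and so were 3 of 14 S phase genes (Mcm3, Mcm4, Hells). The melanocyte list placed Mitf and Kit in the Krt25/Krt28 arm. Its genes Tyr, Tyrp1 and Sox10 were at 0 CPM in both arms of all libraries, and Pmel and Mlana reached no more than 2.22 and 3.68 CPM. Dct, the remaining pigment gene of the list, is not covered by these values. Mitf and Kit held 20 and 51 of the list's 100 UMIs in 28 dpa members, so Dct cannot be called absent.

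Members were set beside the other keratinocyte classes of their own library. Of 5198 genes compared, 72 (1.39%) were at least 2-fold higher in members than in the basal, follicle-like (Lhx2-positive) and suprabasal classes in all 4 libraries. The 12 with the largest smallest ratio were Krt73, Prr9, Krt71, Lef1, Csgalnact1, Sox5, Gm16599, Nrp2, Odc1, Slc30a1, Cux1 and Bach2. Lef1 was at 545.7, 224.6, 634.7 and 486.8 CPM in members, against 7.49, 18.2, 22.8 and 4.82 CPM in the follicle-like class. Sox5, an SRY-box factor, was at 1796.4, 846.9, 453.4 and 303.5 CPM against 113.5, 94.7, 77.4 and 48.2 CPM. Nrp2, a semaphorin and VEGF co-receptor, was at 408.4, 516.1, 297.6 and 283.2 CPM against 63.4, 112.9, 29.6 and 28.9 CPM. Slc30a1, a zinc exporter, was at 172.4, 264.1, 165.1 and 198.9 CPM against 34.6, 47.3, 29.6 and 57.1 CPM. Bach2, a transcriptional repressor, was at 535.5, 613.2, 267.4 and 242.6 CPM against 84.1, 94.7, 43.3 and 79.2 CPM.

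Within each arm, cells differed in how much of the rule keratins they carried, and the pooled cycling share differed with it. Members were placed in 3 tiers by rule keratin UMIs per 10000 UMIs: under 5, 5 to 50, and 50 or more. In the Krt25/Krt28 arm, the tiers held 43, 61 and 25 cells, and after thinning to 2000 UMIs 67.4% (51.5 to 80.9), 55% (41.6 to 67.9) and 8% (0.984 to 26) carried a UMI of the proliferation genes Mki67 or Top2a. In the Krt35 arm, with 16, 32 and 13 cells, the shares were 62.5% (35.4 to 84.8), 6.25% (0.766 to 20.8) and 0 of 13, which has an upper bound of 24.7%. Without marked doublets, the shares were 73.9%, 53.8% and 9.52% in the Krt25/Krt28 arm and 61.5%, 6.9% and 0 of 13 in the Krt35 arm. These shares are a description: the tiers were drawn after the data had been seen, from the keratins that chose the members, and pool cells of libraries that fill them unequally. They also rest on another random draw of the thinning than the shares by library and arm given below. Of the 32 cells in the middle tier of the Krt35 arm, 21 were from 28 dpa, and 3 of its 5 unamputated cells carried a Mki67 or Top2a UMI before thinning. With the minimum of 4 keratin UMIs, the lowest tier can hold only deep cells, and it was deeper (median 25927 and 26531.5 UMIs) than the others (12356 to 13315).

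Other genes differed across the tiers in both directions. In the Krt25/Krt28 arm, Krt71 was at 80, 798.4 and 10876.1 CPM from the lowest tier to the highest, Prr9 at 9.67, 525.1 and 2009.2 CPM, and Tchh, the trichohyalin that hardens the sheath and medulla, at 1.76, 68.7 and 4381.2 CPM. Without marked doublets, Krt71 was at 81.5, 804.6 and 5669.4 CPM, Prr9 at 17.3, 582.5 and 2150.5 CPM and Tchh at 3.47, 12 and 710.3 CPM, each again lowest in the first tier and highest in the last. Krt5, a basal keratin, was at 565.1, 664.9 and 232.3 CPM. In the Krt35 arm, Selenbp1 was at 118.3, 759.5 and 1762 CPM, Hoxc13 at 311.1, 442.8 and 587.3 CPM and Lef1 at 880.7, 1016.2 and 1513.1 CPM, while Krt5 was at 528, 136.9 and 9.95 CPM. Dcn, which encodes decorin, a proteoglycan best known from fibroblasts, was at 895.5, 795.9 and 31.9 CPM in the Krt25/Krt28 arm and at 865.4, 213.9 and 99.5 CPM in the Krt35 arm. Without marked doublets, Dcn in the Krt25/Krt28 arm was at 521.7, 884.7 and 29.3 CPM, highest in the middle tier. These are pooled values, and single libraries differed: in the Krt25/Krt28 arm Dcn was highest in the middle tier at 17 dpa (979.9, 5294.5 and 0 CPM) and at 28 dpa (255.7, 616.1 and 55.5 CPM), where the middle tiers were at 1560.2 and 385.1 CPM without the collagen-rich cells, and Krt5 was highest in the top tier of the unamputated library (589.1, 240.5 and 753.9 CPM). In the unamputated library, 26 of 52 members carried at least 5 Dcn UMIs with at most 5 UMIs of type I collagen, against 35 of 727 basal cells. In the dpa libraries these were 2 of 21, 8 of 20 and 15 of 98 members, against 7 of 301, 20 of 416 and 62 of 1027 basal cells. Most of the 17 dpa members counted here, and many of the unamputated ones, were marked as likely doublets. Unamputated members were also deeper than basal cells, with medians of 26265 and 18623 UMIs. At 28 dpa, Dcn was at 337.8 CPM in members and at 475.8, 605.7 and 541.3 CPM in the basal, follicle-like and suprabasal classes.

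**Figure D4:**
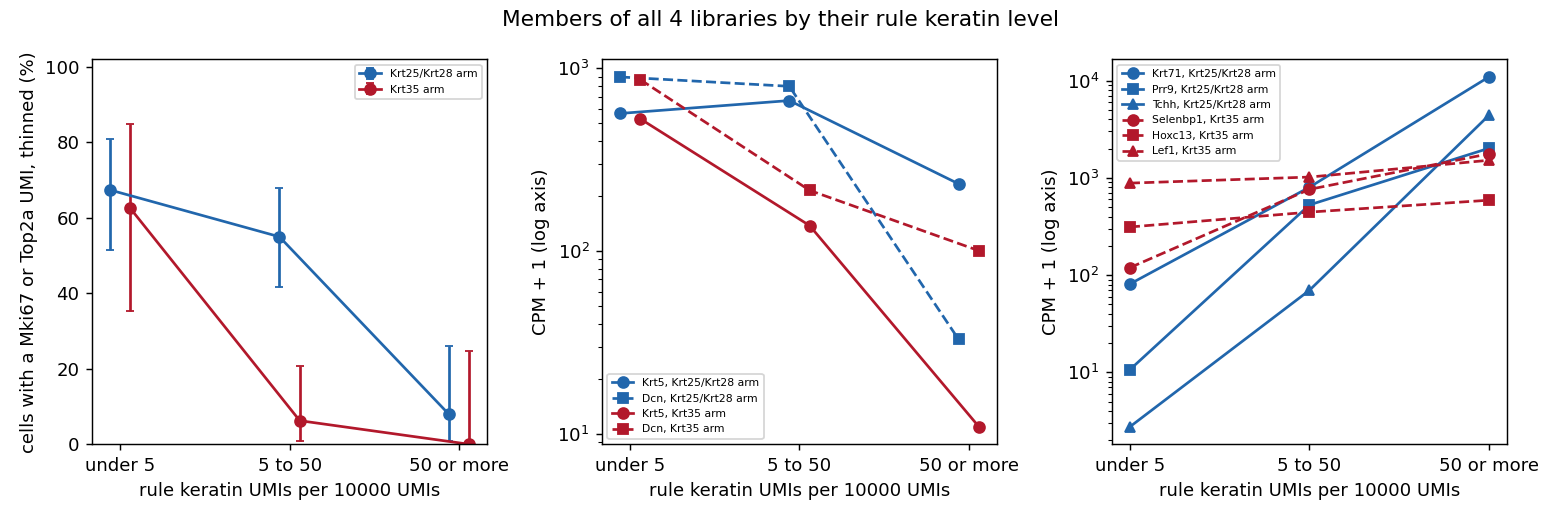
Members of all 4 libraries in 3 tiers of rule keratin UMIs per 10000 (x axis), for the Krt25/Krt28 arm (blue) and the Krt35 arm (red). The left panel gives the share of cells with a Mki67 or Top2a UMI after thinning, with exact 95% intervals, which falls from 67.4% to 8% and from 62.5% to 0%. The other panels give CPM plus 1 on log axes. In the top tier, pooled Krt5 and Dcn are lowest in each arm, pooled Krt71 and Tchh are highest in the Krt25/Krt28 arm and pooled Selenbp1 is highest in the Krt35 arm. Single libraries do not all share this order.

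Cycling also differed between libraries and classes. After thinning, 61.5% (47-74.7) of unamputated members carried a Mki67 or Top2a UMI, and 42.9% (21.8-66), 40% (19.1-63.9) and 32% (22.9-42.2) of the dpa members did. Only the unamputated and 28 dpa intervals were apart. Without marked doublets, with each cell keeping its draw, the shares were 50% (33.4-66.6), 40%, 36.4% and 27.1% (17.2-39.1), and the unamputated and 28 dpa intervals overlapped. Thinning is a random draw: the shares expected over all draws were 58.1%, 47.8%, 31.1% and 31.5% with all members and 52%, 48.5%, 21.2% and 28.5% without marked doublets. Unthinned shares were 80.8%, 66.7%, 65% and 54.1%; thinning left out 1 member, at 28 dpa. Basal cells gave 30.6%, 22.9%, 35% and 33.3%, follicle-like cells 11.7%, 20%, 21.6% and 16.3%, and fibroblasts 6.91%, 6.31%, 2.34% and 2.16%. Unamputated members therefore lay above the basal cells of their library, beyond both intervals (27.2 to 34.1 for basal cells), and 28 dpa members did not. Without marked doublets, the unamputated members' interval overlapped that of basal cells. By arm, the share was 73% (55.9 to 86.2), 45%, 50% and 39.7% (27.6 to 52.8) in the Krt25/Krt28 arm and 46.7% (21.3 to 73.4), 0 of 1 cell, 25% and 12.1% (3.4 to 28.2) in the Krt35 arm. Without marked doublets, the same draws gave 60.9% (38.5-80.3), 42.1%, 50% and 37.8% (22.5-55.2) in the Krt25/Krt28 arm and 46.7%, 0 of 1 cell, 28.6% and 12.5% in the Krt35 arm. Expected over all draws, the shares without marked doublets were 57.9%, 51.1%, 31.8% and 37.4% in the Krt25/Krt28 arm. In the Krt35 arm they were 42.9%, 0 of 1 cell, 15.1% and 16.1%. With all members, the expected 17 dpa shares were 36.4% and 27.5% in the 2 arms. The keratin tiers were filled differently by library: 27 of 37 unamputated Krt25/Krt28-arm cells were in the lowest tier, against 7 of 64 at 28 dpa.

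**Figure D5:**
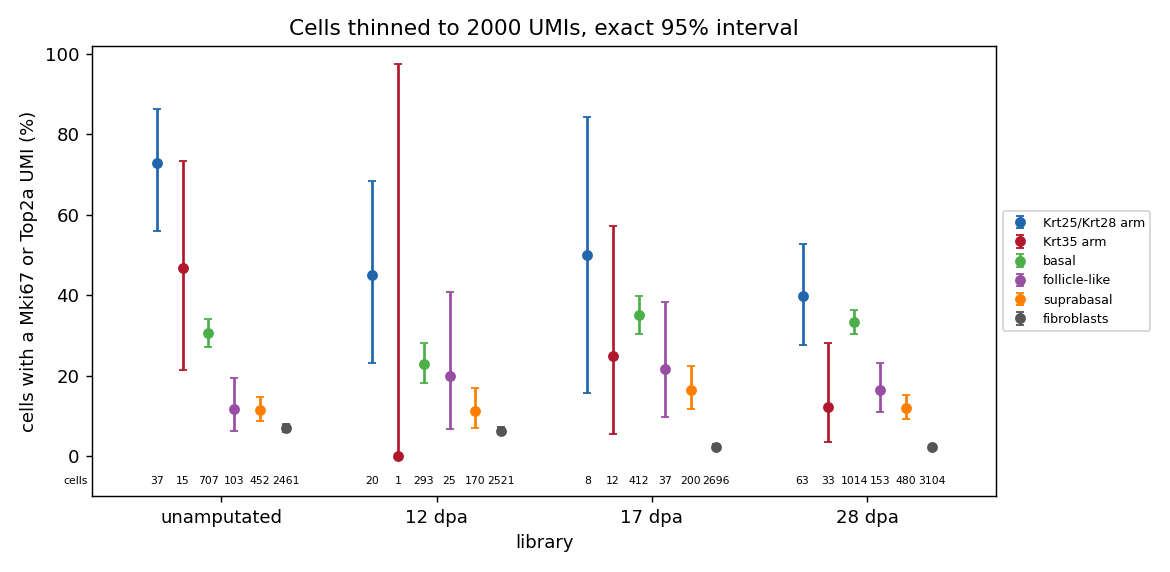
Share of cells with a Mki67 or Top2a UMI after thinning to 2000 UMIs, by library and class, with exact 95% intervals and the number of cells under each point. The Krt25/Krt28 arm lies highest in each library, from 73% in the unamputated to 39.7% in the 28 dpa library, and fibroblasts reach at most 6.91%.

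The 28 dpa members were compared with the unamputated members, with a gene counted where it differed at least 2-fold with exact Poisson intervals apart. Of 7337 genes, 207 (2.82%) were higher at 28 dpa and 731 (9.96%) lower, and the median of all was -0.27 on the log2 scale. Genes of division were lower together: 13 of 15 compared G2/M genes, with a list median of -1.25, and 8 of 15 S phase genes, with -1.05. Mki67 was at 618.8 CPM in unamputated and 199.7 CPM in 28 dpa members and Top2a at 632.6 and 221.6 CPM. Without marked doublets, 12 of 15 G2/M and 8 of 14 S phase genes were lower (9.91% of genes). By arm, 8 of 15 G2/M genes were lower in the Krt25/Krt28 arm, where 9.23% of genes were lower, and 13 of 15 in the Krt35 arm, where 9.14% were. Hist1h2ae, a replication-dependent histone gene, was at 599.8 CPM (559.4 to 642.2) and 83.5 CPM (68.4 to 100.9). Rad51b, a recombination repair gene, was at 259.3 and 45.2 CPM, and Atad2, a chromatin ATPase, at 189.9 and 42.1 CPM. Each of these 3 was lower in both arms. In the fibroblasts of the same libraries their log2 ratios were -2.52, -1.23 and -1.03, and in basal cells -0.15, -0.74 and -0.24. The tier mix just given moved with the same libraries; its part was not tested.

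Of 3 compared inner root sheath keratins, Krt27 and Krt71 were higher at 28 dpa, where 2.82% of all genes were higher. Krt27 was at 40.9, 88, 125.5 and 612.4 CPM in the 4 libraries and Krt71 at 300.2, 1108, 660.3 and 2659.6 CPM, so that, with all members, 28 dpa was highest and the unamputated library lowest. Within the Krt25/Krt28 arm, all 3 compared sheath keratins, Krt73 included, were higher at 28 dpa, where 4.06% of genes were. At 28 dpa a single cell held 54.9% of the Krt27 and 35% of the Krt71 UMIs. Of 6 other compared genes of the inner root sheath and medulla, Tchh and Padi3 were higher (2.82% of all genes) and Cux1 was lower (9.96% of all genes). Cux1 was at 1618.1 and 779.4 CPM in unamputated and 28 dpa members, while Gata3 was at 279.8 and 287.1 CPM. Tchh was at 2.92, 24.3, 16.3 and 1206.1 CPM, found in 2, 4, 1 and 14 members. Marked doublets held 86.6% of the 28 dpa Tchh UMIs, 88.2% of the Krt27 and 65.2% of the Krt71 UMIs. Without marked doublets, Tchh was at 4.21, 29.3, 29.3 and 222 CPM, Krt27 at 41.1, 102.5, 217.7 and 99.8 CPM and Krt71 at 378.1, 1336.8, 1184.9 and 1272.2 CPM, so that 28 dpa was no longer highest for the 2 keratins; both were still called higher than in the unamputated library, with Krt27 at a log2 ratio of 1.26, as was Tchh. Most of the 28 dpa Tchh UMIs left without marked doublets sat in a single cell, which held 128. Padi3, the deiminase that acts on trichohyalin, was at 15.3 CPM in unamputated and 35.1 CPM in 28 dpa members, and at 20 and 22.5 CPM without marked doublets. Across the tiers of the Krt25/Krt28 arm, from lowest to highest, Krt71 was at 106.6, 919 and 3392.5 CPM in the unamputated library (27, 7 and 3 cells) and at 0, 918.3 and 14838.3 CPM at 28 dpa (7, 41 and 16 cells). Without marked doublets, the top tier at 28 dpa was at 5826.3 CPM (12 cells), and the unamputated top tier was unaltered at 3392.5 CPM.

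Of 17 compared matrix regulators, 0 were lower at 28 dpa and 1 was higher (Wnt10a), with a median of -0.02, where 9.96% of all genes were lower and 2.82% higher. Without marked doublets, 0 were lower and 0 higher. By arm, 3 of 17 were lower in the Krt35 arm (Foxn1, Dlx3, Id3; 9.14% of genes), and in the Krt25/Krt28 arm 2 of 15 were lower (Hoxc13, Odc1; 9.23%) and 2 higher (Ovol1, Bambi; 4.06%). Of 21 compared Wnt pathway genes, 5 were lower (Tcf7l2, Wnt5a, Nkd1, Lgr4, Lgr6) and 1 higher (Wnt10a), with a median of -0.67. Gli2, a Hedgehog transcription factor, was at 105.9, 39.5, 9.3 and 38.2 CPM and Ptch1, the Hedgehog receptor, at 135.1, 75.9, 88.3 and 49.2 CPM. Lgr6, an R-spondin receptor of follicle progenitors, was at 83.3, 27.3, 4.65 and 3.12 CPM. Sox5 had a log2 ratio of -2.56 at 28 dpa, which was -2.71 in the Krt25/Krt28 arm and -0.24 in the Krt35 arm. In the lowest tier of the Krt25/Krt28 arm Sox5 was at 2792.5, 1454.1, 848 and 739.7 CPM and in the middle tier at 669.9, 372.4, 274.5 and 250.8 CPM. With all members, the order of libraries was the same in both. Without the collagen-rich cells, the middle tier at 17 dpa was at 546.1 CPM in 2 cells, above the 372.4 CPM of 12 dpa. The lowest tier then still had 12 dpa above 17 dpa, at 1102.6 and 848 CPM. In the highest tier, of 3, 4, 2 and 16 cells, it was at 188.5, 108.7, 329.4 and 438.6 CPM, with another order. Mitf, a basic helix-loop-helix factor, was at 107.4 CPM in unamputated and 15.6 CPM in 28 dpa members and lower in both arms.

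All 6 compared suprabasal genes were higher at 28 dpa (Krt1, Krt10, Krtdap, Sbsn, Calm4, Dmkn), with a median of 2.98, against 2.82% of all genes. So were all 6 within the Krt25/Krt28 arm, where 4.06% of genes were higher, and 4 of 7 within the Krt35 arm, where 1.76% were. Krt1 was at 12.4, 51.6, 16.3 and 291.8 CPM, with 65.8% of the 28 dpa UMIs in 1 cell, and Krtdap at 5.11, 15.2, 6.97 and 178.7 CPM in 7, 2, 3 and 27 members. All 4 compared smooth muscle genes were higher (Acta2, Myh11, Rgs5, Tagln), against 2.82% of all genes. Of the list's 28 dpa UMIs, 59.4% were in 1 cell, and 27 of 98 members held such UMIs. Acta2, smooth muscle actin, was found in 12 members and Tagln in 7. Marked doublets held 95.4% and 97% of their 28 dpa UMIs, and without them Acta2 was at 9.65 CPM and Tagln at 4.29 CPM at 28 dpa, under the level compared. Of the suprabasal genes, 5 of 7 compared were then higher (2.09% of genes), with Krt1 at 11.6 and 123.4 CPM and Krtdap at 4.21 and 116.9 CPM. S100a4 was more widely spread, in 16 of 52 unamputated and 58 of 98 28 dpa members, at 14.6 and 156 CPM. With all members, its log2 ratio of 3.33 stood beside ratios of 2.37, 1.87 and 2.02 in basal cells, follicle-like cells and fibroblasts. Marked doublets held 64.5% of its 28 dpa UMIs. Without them S100a4 was at 19 and 76.2 CPM, in 14 of 38 unamputated and 39 of 70 28 dpa members. The fibroblast list summed to 1693.4, 4860, 6563.3 and 1242 CPM in members, and to 992.7, 879, 657.2 and 810.2 CPM without the 4 collagen-rich cells. With those cells, 0 of 5 compared fibroblast genes were higher at 28 dpa (2.82% of all genes) and Dcn was lower (9.96% of all genes), with a median of 0.04. Without them, Col1a1, Col1a2, Col3a1 and Lum were higher and Dcn lower, with a median of 2.16 (3.41% of genes higher). Within the Krt25/Krt28 arm the same 4 were higher with its collagen-rich cell (median 3.35; 4.06% of genes higher) and without it (2.26; 3.84%). Of 12 compared genes known to respond to tissue dissociation, 4 were higher (Fos, Atf3, Zfp36, Dusp1), with a median of 0.52, against 2.82% of all genes. Without marked doublets 0 were higher (2.09% of genes) and 3 lower (9.91%). What cells of other types or dissociation contributed to these sums was not tested.

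Shaft keratins gave no stable order of libraries. Krt31, Krt33a and Krt83 were at 337.5, 367.5 and 412 CPM in unamputated members and at 0, 0 and 4.68 CPM at 28 dpa. There, 6 of 7 compared cortex and cuticle keratins and 4 of 4 compared keratin-associated proteins were lower, against 9.96% of all genes. Without the collagen-rich cells, the unamputated values became 7.63, 6.1 and 1.53 CPM, and 0 of the keratin-associated proteins reached the level to be compared. The only cortex keratin then compared, Krt86, was higher at 28 dpa (18.3 against 55.1 CPM), where 3.41% of genes were higher. Shaft keratin sums in members were 1331.7, 3.04, 923 and 92.8 CPM, and 39.7, 3.66, 980.8 and 93.6 CPM without those cells, so the 17 dpa library was then highest. At 17 dpa, 10 of 20 members carried such UMIs, 47.6% of them in 1 cell.

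The 17 dpa members, of whom 12 of 20 were of the Krt35 arm, had 302 of 7552 genes higher (4%) and 465 lower (6.16%). The 6 highest were Krt84, Dgkb, Ctnna3, Prkg1, Sparc and Ctsk, and in each a single cell held between 93.2% and 100% of the UMIs, so they describe single cells. Krt84, a hair keratin, was at 0 CPM in unamputated and 106.9 CPM in 17 dpa members, in 2 cells. The 6 lowest were Lgr5, Adamts9, Creb5, Hist1h2ap, Gli2 and Hist1h2ae. Lgr5, an R-spondin receptor of follicle stem cells, was at 151.2, 27.3, 4.65 and 36.7 CPM, in 22, 4, 1 and 11 members. Adamts9, a secreted protease, was at 189.9, 57.7, 6.97 and 52.3 CPM. Lgr5, Adamts9 and Creb5 lay mainly in the Krt25/Krt28 arm, which held 8 of the 20 cells, and had log2 ratios there of -3.78, -5 and -4.11. Of 15 compared G2/M genes, 10 were lower, with 11 of 15 in the Krt25/Krt28 arm (4.02% of genes lower) and 3 of 15 in the Krt35 arm (4.02%). All 3 compared sheath keratins were higher in the Krt25/Krt28 arm (4.59% of genes higher), and 2 of 9 cortex and cuticle keratins were higher and 5 lower in the Krt35 arm (1.94% higher). Without the collagen-rich cells, 8 of 8 compared cortex and cuticle keratins (4.09% of genes higher) and 4 of 4 keratin-associated proteins were higher at 17 dpa, where with those cells 2 of 9 were higher and 3 lower, and 0 and 1 of 4. Cdk8, which was also higher across other cells of the 12 and 17 dpa libraries, was at 273.2, 1211.2, 637 and 281.6 CPM.

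The 12 dpa members, of whom 20 of 21 were of the Krt25/Krt28 arm, had 205 of 7516 genes higher (2.73%) and 385 lower (5.12%). Leaving out Xist (1.46 and 258 CPM), the 6 highest were Timp1, Acta2, S100a4, Sparc, Crip1 and Tnc, and the collagen-rich cell held between 95.1% and 100% of their UMIs. Without the collagen-rich cells, Sparc was at 14.5 CPM in unamputated and 73.2 CPM in 12 dpa members (log2 ratio 2.26) and S100a4 at 12.2 and 25.6 CPM (1.01). Timp1 was then at 2.29 CPM in unamputated and 3.66 CPM in 12 dpa members, Acta2 at 2.29 and 0 CPM, Crip1 at 58 and 36.6 CPM and Tnc at 21.4 and 7.32 CPM. The 6 lowest were Krtap8-1, Krt83, Krtap7-1, Krt33a, Krt87 and Krt31, of which 1 unamputated cell held at least 97.8%. Within the Krt25/Krt28 arm alone, where 2.75% of genes were higher and 4.26% lower, Krt71 of the 3 compared sheath keratins was higher (411.4 and 1149.2 CPM) and Krt75 lower (100.3 and 6.3 CPM). Gli2, Eda, Edaradd and Fgfr2 were the 4 of 11 compared Hedgehog, ectodysplasin and Fgf genes that were lower in this arm. Of 16 compared G2/M genes, 1 was lower. Members of the 3 dpa libraries were compared with the same unamputated cells, so these differences are not independent of each other.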

How the data were processed

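The authors deposited, per sample, a matrix of UMI counts per gene and cell barcode (16045, 8813, 10514 and 15253 barcodes holding 197140774, 92313847, 95988993 and 106899985 UMIs). Cell Ranger 7.1.0 and the mm10 build are named in the submitters' processing notes, and no count was normalized. Tissue was digested and live cells were sorted, per the labels' protocols. Barcodes were kept with at least 500 genes, 1000 UMIs and at most 10% mitochondrial UMIs. Counts were summed over members, arms and comparison classes of each library and expressed as CPM, and log2 ratios used a pseudocount of 1 CPM, so ratios of low genes are understated. Genes of at least 20 CPM in either group were compared. A gene differed between libraries when it was at least 2-fold apart with exact 95% Poisson intervals apart, and between arms when it was at least 2-fold apart in both libraries with at least 15 cells per arm. Shares have exact Clopper-Pearson intervals. These cover counting error only.

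The 9 rule genes entered no count. Named were the 12 genes per arm with the largest smallest log2 ratio, the 6 highest and 6 lowest per dpa library with the same direction in both arms where each had 15 cells, and the 12 with the largest smallest ratio over the keratinocyte classes, all of at least 100 CPM and none mitochondrial, haemoglobin, immunoglobulin, Y-linked, Xist or Tsix in the dpa comparisons, plus members of the gene lists. Members and lists were chosen with earlier results of these data known. Comparison classes needed at least 0.5% of a cell's UMIs in Krt5 plus Krt14 (basal without and follicle-like with a Lhx2 UMI), Krt1 plus Krt10 (suprabasal) or Col1a1 plus Col1a2 (fibroblasts). Scrublet in scanpy 1.11.5 marked 12.84%, 7.05%, 8.41% and 12.2% of barcodes, which stayed in. The comparison was tested on simulated counts. Python 3.11.15, numpy 2.4.6, scipy 1.17.1, pandas 2.3.3 and matplotlib 3.10.9 were used. Of 32285 gene IDs, 32158 were in GENCODE M21. The summary of 1 gene list at 28 dpa is not reported here.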

Additional observations from a re-analysis of the deposited data

Results flagged for a closer look

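Xist, the X-inactivation transcript, which was left out of the named genes, stood at 258 CPM in the 12 dpa members, above its level in the unamputated members (1.46 CPM). It was detected in 9 of the 21 members at 12 dpa, and no Y-linked UMI was found in them, while all 52 unamputated, all 20 17 dpa and 83 of 98 28 dpa members carried Y-linked UMIs.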

How the results depend on the processing

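No paired analysis was possible because each group is 1 library. Causes of the following moves were not tested unless the alternative's construction gives them. Member shares became 0.0861%, 0.121%, 0.0963% and 0.508% after thinning to 2000 UMIs, and 3.83%, 4.02%, 2.96% and 5.51% of keratinocytes; a keratin sum of at least 8 gave 0.218% in the unamputated library and removing marked doublets gave 0.139% at 17 dpa. Unthinned cycling shares were 80.8%, 66.7%, 65% and 54.1%, and 48.4% at 28 dpa when thinned to 4000. Genes higher in the Krt25/Krt28 and Krt35 arms numbered 613 and 375 from 5 CPM on; a keratin sum of at least 8 gave 455 in the first. With either library left out, only 1 had to pass, and the counts were 916 to 1073 and 538 to 709. Genes higher in members than in other keratinocytes ranged from 81 to 117 with 1 library left out, highest without 12 dpa. Against the unamputated library, sums thinned to the smallest gave 136 higher and 252 lower genes at 12 dpa, 174 and 273 at 17 dpa, and 114 and 383 at 28 dpa. Genes from 5 CPM on gave 323 higher at 28 dpa. The Krt35 arm alone gave 145 higher and 301 lower at 17 dpa and 125 higher at 28 dpa. At 12 dpa, 110 were higher without marked doublets and 128 without the collagen-rich cells, an alternative added, like the arms at 12 and 17 dpa, after seeing the data. Reversed at 12 dpa without doublets and without the collagen-rich cells were Acta2 (-2.06 and -1.72), Crip1 (-0.54 and -0.65) and Tnc (-1.18 and -1.43). Reversed at 17 dpa were Ctnna3 (-1.59 in the Krt25/Krt28 arm, -2.06 without doublets), Sparc (-2.07), Ctsk (-5.37) and Creb5 (0.31) in the Krt35 arm, and Ctsk without the collagen-rich cells (-0.22). Lists, genes and cycling without marked doublets were also added after seeing the data. No named 28 dpa, arm or member gene reversed under the alternatives run. Arms of 1 to 20 cells at 12 and 17 dpa limit what depth can show there.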
